A study of Mus musculus with 65 samples.

Results

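Cdkn1a, Cdkn1b, Cdkn1c, Cdkn2c, Cdkn2d, Btg1 and Tob1 are 7 genes whose proteins hold back cell division. They were taken by name and are 7 of the 10407 genes measured in 65 single cells of CD1 mouse embryos. The study asked what apical progenitors of the cortex do when moved into a younger brain, and read their RNA by Patch-seq, where single cells are taken up with a patch pipette and sequenced one by one. There were 19 progenitors of embryonic day 15 (E15) that had been placed in a host brain of embryonic day 12 (E12), called transplanted cells here, 26 FlashTag cells of E15 and 20 FlashTag cells of E12. FlashTag is a fluorescent dye put into the ventricle, which marks progenitors dividing at the ventricular surface. FlashTag cells were labelled WT and transplanted cells Transplanted, and no allele or agent was named. Since embryos, litters and hosts were not named, the cells of a group could not be split into replicates. Each group is 1 sample, differences between groups have no replicate check, and no p-value is given.

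Cyclin-dependent kinases (CDKs) drive the cell through G1 and into S phase. Proteins of the Cip/Kip family, p21 from Cdkn1a, p27 from Cdkn1b and p57 from Cdkn1c, bind cyclin-CDK complexes, and those of the Ink4 family, p18 from Cdkn2c and p19 from Cdkn2d, bind Cdk4 and Cdk6 and keep D cyclins off them. Btg1 and Tob1 belong to the BTG/TOB family, whose proteins bring the CCR4-NOT deadenylase to messenger RNAs and slow proliferation. In the developing cortex p27 and p57 are known for their part in cell cycle exit, p19 for keeping neurons out of the cycle, and the BTG/TOB relative Btg2 for marking progenitors about to make neurons.

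Levels are given as CPM, the reads of a gene per 1000000 reads of the cell or, where reads of a group were added up, of the group. Bounds in parentheses are exact 95% Poisson limits for reads and exact 95% Clopper-Pearson limits for shares of cells. No molecular identifiers were used and PCR copies count as reads, so these bounds hold for counting error alone. A log2 ratio takes summed CPM plus 1, and a ratio of at least 1 in size (2-fold) among genes with at least 5 CPM in either group is called past the limit. All 7 genes met the 5 CPM in each of the 3 comparisons. Reads came from a kit that primes at the 3' end, and levels were compared between groups and not between genes.

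Libraries held 22358 to 3622411 reads in transplanted cells, 11449 to 4560871 in E15 cells and 10928 to 1635767 in E12 cells, with medians of 166134, 998630 and 148824. Above 8000 genes were detected in 16 libraries, called many-gene libraries here: 5 transplanted, 11 E15 and 0 E12. They held 62.6% of all reads, with 63.5% of those of transplanted cells, 70.6% of those of E15 cells and 0% of those of E12 cells. Ratios without them are given where leaving them out turned the sign, crossed the limit described above or moved a ratio of a member by more than 1.5 times. Every cell had reads of the 19 apical progenitor genes looked at, with per-cell sums of 1781 to 24146 CPM (median 7051) in transplanted, 1196 to 45419 (median 5263) in E15 and 2375 to 19400 (median 10683) in E12 cells. Every cell also had reads of the 20 neuron genes, with medians of 4051 CPM in transplanted, 5762 in E15 and 1596 in E12 cells. The 15 microglia and macrophage genes had per-cell sums of 0 to 25840 CPM (median 268) in transplanted, 2.64 to 10486 (median 1015) in E15 and 0 to 563 (median 37.7) in E12 cells. For 15 ventral telencephalon and interneuron genes the sums were 0 to 3971 CPM (median 1336), 10.6 to 6698 (median 1383) and 5.84 to 2588 (median 256) in the same order of groups. One endothelial and pericyte gene of 12 was measured and was at 0 in 53 of the 65 cells. Over many-gene libraries the median sum was 3133 CPM for apical progenitor and 7779 CPM for neuron genes. Over the other E15 and transplanted cells these medians were 13651 and 2533 CPM. For microglia and macrophage genes the median was 2531 against 268 CPM, and for ventral telencephalon and interneuron genes 3964 against 723 CPM. The part of these other cell types in the values that follow was not tested.

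In GRCm38, with GENCODE vM21 annotation, Cdkn1a lies on chr17:29090976-29100727 (+ strand), Cdkn1b on chr6:134920401-134925513 (+), Cdkn1c on chr7:143458339-143461050 (-), Cdkn2c on chr4:109660876-109667189 (-), Cdkn2d on chr9:21288410-21291407 (-), Btg1 on chr10:96617006-96622809 (+) and Tob1 on chr11:94211454-94215495 (+). All are protein-coding. Cdkn1a overlaps AC167363.2 and Cdkn1c the antisense gene Gm44732, each on the other strand. The sources used here do not state whether reads were counted by strand, so reads of these 2 members and of their partners cannot be told apart.

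Promoter windows in RefSeq (GRCm38.p6), from 250 bases before to 50 bases after a start, were matched for 6 of the 7 genes. Those shown are the one window with more than 1 match to the p53 half-site, for Cdkn1a, a textbook target of p53, and those of Cdkn2c and Cdkn2d, the pair of members read together most closely over the cells. The windows are chr17:29090729-29091028 (+) for Cdkn1a, chr4:109666707-109667006 (-) for Cdkn2c and chr9:21291160-21291459 (-) for Cdkn2d. Capitals mark matches to the p53 half-site in the first and to GGGCGG, the GC box, in the others, searched on both strands.
Cdkn1a: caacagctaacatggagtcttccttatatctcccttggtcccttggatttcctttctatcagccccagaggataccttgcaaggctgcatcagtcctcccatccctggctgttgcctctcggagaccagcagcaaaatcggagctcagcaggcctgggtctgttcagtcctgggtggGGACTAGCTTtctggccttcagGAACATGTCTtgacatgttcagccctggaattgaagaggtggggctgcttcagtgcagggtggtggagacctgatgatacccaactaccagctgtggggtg
Cdkn2c: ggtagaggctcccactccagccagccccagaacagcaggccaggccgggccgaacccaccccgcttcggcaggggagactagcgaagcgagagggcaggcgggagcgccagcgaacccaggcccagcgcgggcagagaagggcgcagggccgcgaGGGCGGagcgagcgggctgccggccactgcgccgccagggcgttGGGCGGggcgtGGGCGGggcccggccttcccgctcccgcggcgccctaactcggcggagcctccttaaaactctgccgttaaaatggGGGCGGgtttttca
Cdkn2d: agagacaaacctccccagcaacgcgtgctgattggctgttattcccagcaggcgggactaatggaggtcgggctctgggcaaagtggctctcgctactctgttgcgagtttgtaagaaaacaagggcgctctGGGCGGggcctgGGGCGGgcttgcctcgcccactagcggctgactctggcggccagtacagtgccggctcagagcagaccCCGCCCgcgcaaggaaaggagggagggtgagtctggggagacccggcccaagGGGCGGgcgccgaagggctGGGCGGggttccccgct
The Cdkn1a window held 2 half-sites, as did 0.359% of the 32851 RefSeq windows at that number or more, and 8.36% held at least 1. Cdkn2d had 1 half-site and the other windows of the members none. The GC box matched 4 times in the Cdkn2c window shown and 5 times in that of Cdkn2d. It also matched 3 times for Tob1, 2 times for Btg1 and 1 time for Cdkn1b, and at least once in 35.7% of all windows. Cdkn1a and Cdkn2c each had a second window, with 2 GC boxes for Cdkn1a and 0 for Cdkn2c. TATAAA was found in the windows of Btg1 and Tob1 and in 13.6% of all windows. A match describes letters only, and a 3' read does not tell which start was used.

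Cdkn1a, which encodes the p53-inducible inhibitor p21, was higher in E15 than in E12 cells. By summed reads of all libraries it lay between them in transplanted cells. Reads were found in 6 of 19 transplanted cells, from 0 over a median of 0 to 23.99 CPM. They were found in 18 of 26 E15 cells, with a median of 7.30 and a highest value of 110 CPM, and in 5 of 20 E12 cells, with a median of 0 and a highest value of 33.3 CPM. The E12 cells held 13 reads of this gene in all. Most E12 and transplanted cells were at 0, and the cells above 50 CPM were all E15 cells. Summed levels were 10.6 CPM (8.90 to 12.6) in transplanted, 26.4 (24.8 to 28.1) in E15 and 2.63 (1.40 to 4.50) in E12 cells. Transplanted replicate 19 held 45.9% of the transplanted reads of Cdkn1a, and without it the transplanted level was 7.21 CPM. The log2 ratio of E15 over E12 cells was 2.92, above that of 91.6% of genes, and it was positive in 11 of 11 other settings of scaling, weighting and cell choice and in 7 of 8 pools. All 11 many-gene E15 cells had a read (median 23.4 CPM), against 7 of the 15 other E15 cells. Without many-gene libraries the levels were 13.8 CPM in transplanted, 10.1 in E15 and 2.63 in E12 cells, so that the log2 ratio of E15 over E12 cells was 1.61, and that of transplanted over E15 cells was 0.42 in place of -1.24.

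Cdkn1b, the gene of p27, was also higher in E15 than in E12 cells. Per-cell values ran from 0 over a median of 20.99 to 341 CPM in transplanted cells (10 of 19 with a read). In E15 cells they ran from 0 over 54.7 to 250 CPM (19 of 26 with a read), and in E12 cells from 0 over 1.22 to 252 CPM (10 of 20). The 3 ranges overlapped, and the highest single value was in a transplanted cell. Summed levels were 66.1 CPM (61.7 to 70.8) in transplanted, 86.9 (84.0 to 90.0) in E15 and 40.3 (34.9 to 46.3) in E12 cells. The log2 ratio of E15 over E12 cells was 1.09, positive in 11 of 11 other settings (0.77 to 1.97) and in 6 of 8 pools. It was just under the limit when any of 4 cells was left out, at 0.91 without E15 replicate 13, 0.99 without E15 replicate 25, 0.90 without E12 replicate 17 and 0.98 without E12 replicate 19. Transplanted replicate 19 alone held 59.7% of the transplanted reads of Cdkn1b. Without it the transplanted level was 33.5 CPM, the log2 ratio of transplanted over E15 cells was -1.35 in place of -0.39, and that over E12 cells was -0.26 in place of 0.70. Without many-gene libraries these ratios were 0.30 and 1.61.

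Cdkn1c, the imprinted gene of p57, went the other way and had its highest level in E12 cells. There 8 of 20 cells were above 100 CPM, 10 had no read, and the other 2 had 1 read each. The E12 median was 0.306 CPM and the highest value 1588 CPM, on 119 reads. Transplanted cells ran from 0 over a median of 49.5 to 632 CPM, with 12 of 19 read and 6 above 100 CPM. In E15 cells it was read more often, in 20 of 26 cells, but at lower values, with a median of 49.1 CPM, a highest value of 128 CPM and 3 cells above 100 CPM. Summed levels were 108 CPM (102 to 114) in transplanted, 78.3 (75.5 to 81.2) in E15 and 180 (168 to 192) in E12 cells. The log2 ratio of E15 over E12 cells was -1.19, and it was negative in 11 of 11 other settings (-3.09 to -1.09). It was -0.66 without E12 replicate 9, which held 35.4% of the E12 reads of this gene, and -0.97 without E12 replicate 19. Within pools it was negative in 5 of 8, and the mean over pools was 1.501, with all 3 positive values in pools whose E12 cells had no read. The ratio of transplanted over E15 cells was 0.46, against -0.05 without transplanted replicate 14 and -0.65 without many-gene libraries. Transplanted over E12 cells gave -0.73, and -1.99 without those libraries.

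**Figure D1:**
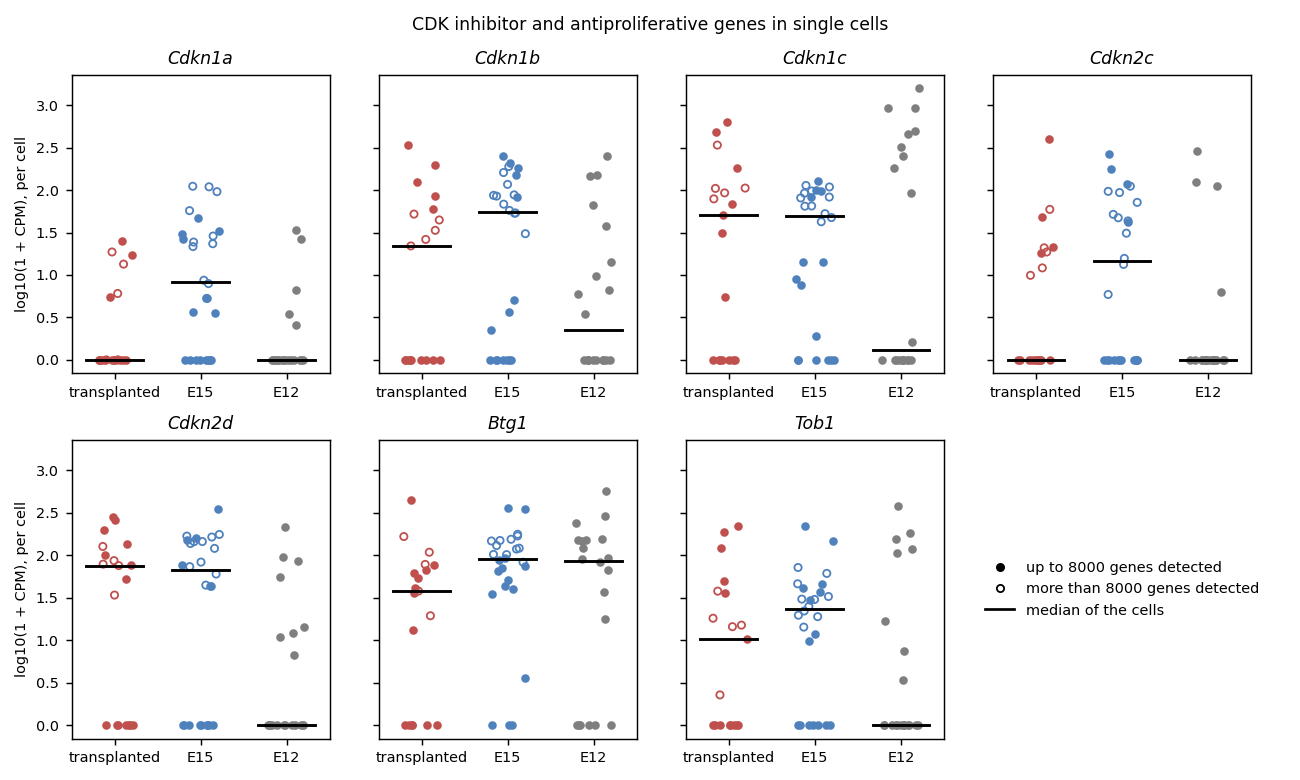
Level of each gene in each cell, as log10(1 + CPM), in transplanted (19), E15 (26) and E12 (20) cells. Points are cells, hollow points are libraries with more than 8000 genes detected, and black lines are medians. The E12 values of Cdkn1c split into 10 cells at 0 and 8 above 100 CPM, and Cdkn1a reads sit mostly in E15 cells.

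Cdkn2c, the gene of the Ink4 inhibitor p18, was read in few E12 cells but at high values there. It had reads in 9 of 19 transplanted cells, with a median of 0 and a highest value of 402 CPM, and that top cell rested on 10 reads. E15 cells had reads in 15 of 26, with a median of 13.5 and a highest value of 262 CPM, and E12 cells in 4 of 20, with a median of 0 and a highest value of 291 CPM. One E12 cell, replicate 5, held 51.7% of the E12 reads of Cdkn2c. Summed levels were 18.7 CPM (16.4 to 21.3) in transplanted, 42.6 (40.5 to 44.8) in E15 and 70.4 (63.2 to 78.2) in E12 cells. By the mean of cells the order differed, with 31.6 CPM in transplanted, 44.8 in E15 and 26.4 in E12 cells. Transplanted over E15 cells gave a log2 ratio of -1.15, negative in 11 of 11 other settings (-2.07 to -0.19). That of E15 over E12 cells was -0.71, negative in 8 of 11 other settings, and 0.74 on mean CPM. Without many-gene libraries the ratio of transplanted over E15 cells was -0.63 and that of E15 over E12 cells -1.36.

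Cdkn2d, the gene of the Ink4 inhibitor p19, was higher in E15 than in E12 cells, short of the limit. Transplanted cells ran from 0 over a median of 74.8 to 281 CPM (12 of 19 read), E15 cells from 0 over 66.0 to 350 CPM (17 of 26) and E12 cells from 0 over 0 to 214 CPM (8 of 20). More than 100 CPM were found in 5 transplanted, 10 E15 and 1 E12 cell. Summed levels were 83.8 CPM (78.8 to 88.9) in transplanted, 117 (114 to 121) in E15 and 64.3 (57.5 to 71.8) in E12 cells. The log2 ratio of E15 over E12 cells was 0.86, positive in 11 of 11 other settings (0.06 to 1.70) and in 7 of 8 pools. It passed the limit without E12 replicate 5 (1.25) or E12 replicate 17 (1.43), which held 49.4% and 41.8% of the E12 reads of the gene. The many-gene E15 cells were read in 11 of 11 at a median of 137 CPM, against 6 of 15 other E15 cells, and without many-gene libraries the ratio was 0.28. Transplanted over E15 cells gave -0.48, and 0.38 without many-gene libraries. Transplanted over E12 cells gave 0.38, and 0.66 without those libraries.

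Btg1, which slows proliferation and was named for a translocation in leukaemia, was lower in transplanted than in E15 cells. It was read in 13 of 19 transplanted cells, from 0 over a median of 37.0 to 451 CPM. In E15 cells it was read in 23 of 26, from 0 over 89.5 to 363 CPM, and in E12 cells in 14 of 20, from 0 over 85.8 to 568 CPM. Cells above 100 CPM numbered 3 of 19 transplanted, 12 of 26 E15 and 8 of 20 E12. Summed levels were 61.1 CPM (56.9 to 65.6) in transplanted, 110 (106 to 113) in E15 and 119 (110 to 129) in E12 cells, and the limits of the last 2 groups overlapped. Transplanted over E15 cells gave a log2 ratio of -0.83, within the limit of 1, and the narrowest of the 7 genes over the settings, with -0.86 to -0.56 in 11 of 11 others. It was negative in each of the 7 pools that held both groups (-5.06 to -0.40), and it stayed at -0.83 without many-gene libraries. Leaving out transplanted replicate 4 took it past the limit, to -1.06. E15 over E12 cells gave -0.12, and 0.094 without E12 replicate 1 and -0.73 without many-gene libraries.

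Tob1, whose protein also binds Smads and the deadenylase, had its highest summed level in E12 cells. Values ran from 0 over a median of 9.31 to 224 CPM in transplanted cells (11 of 19 read), from 0 over 22.6 to 219 CPM in E15 cells (19 of 26) and from 0 over 0 to 378 CPM in E12 cells (8 of 20). Cells above 100 CPM numbered 3 of 19, 2 of 26 and 5 of 20 in the same order. Summed levels were 20.3 CPM (17.9 to 22.9) in transplanted, 31.1 (29.3 to 32.9) in E15 and 68.6 (61.5 to 76.3) in E12 cells. Of the E12 reads, 51.6% came from replicate 5. The log2 ratio of E15 over E12 cells was -1.12. Without 1 cell it was -0.66 (E12 replicate 5), -0.86 (E12 replicate 1) or -0.96 (E12 replicate 17), and with cells thinned to one depth it was 0.27. On mean CPM it was -0.47, and without many-gene libraries -0.88. Transplanted over E12 cells gave -1.71, negative in 11 of 11 other settings (-1.75 to -0.11), and -0.82 without pool E and -1.10 without many-gene libraries. Transplanted over E15 cells gave -0.59, and -0.22 without many-gene libraries.

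The number of cells with a read moved with depth. With every cell thinned to 28614 reads, which left 17 transplanted, 24 E15 and 17 E12 cells, Cdkn1a was found in 2 transplanted cells (11.8%, 1.46 to 36.4), 6 E15 cells (25%, 9.77 to 46.7) and 0 E12 cells (0%, 0 to 19.5). By a floor of 3 counts, 0 of 17 cells allows a share of up to 17.6%. Before thinning the shares were 31.6%, 69.2% and 25%. For Cdkn1b the thinned shares were 41.2% of transplanted, 54.2% of E15 and 23.5% of E12 cells, and for Cdkn1c they were 52.9%, 50% and 47.1%. Cdkn1c was read in 63.2%, 76.9% and 50% of cells before thinning. The limits overlapped between groups for each of the 7 genes both before and after thinning, so their overlap does not speak to depth. The differences in these shares were not tested, since cells are not replicates of a condition.

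**Figure D2:**
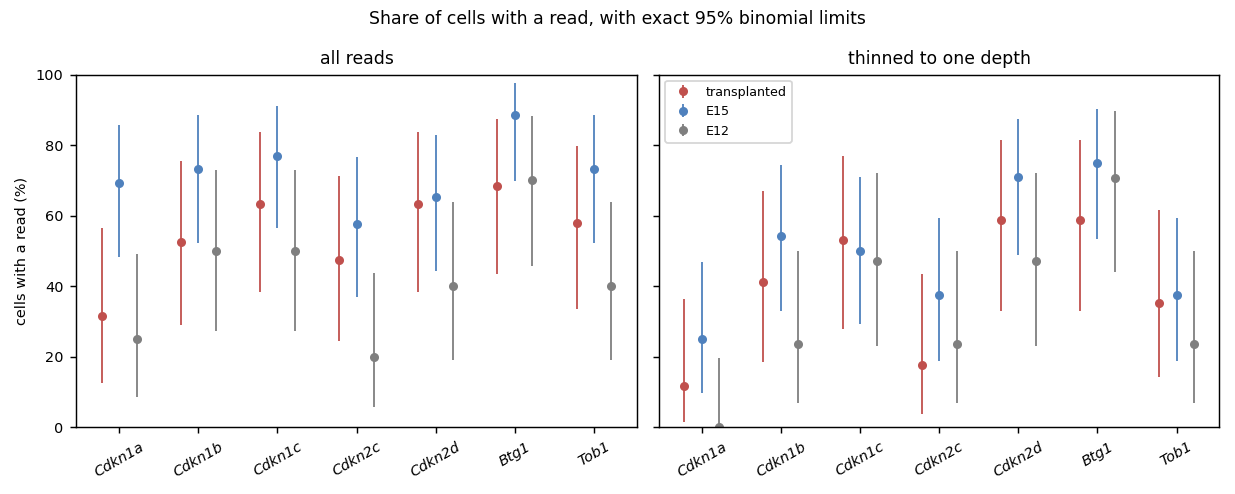
Share of cells with at least 1 read of each gene, in percent, with all reads and after thinning each cell to 28614 reads, for transplanted, E15 and E12 cells. Bars are exact 95% Clopper-Pearson limits, which overlap between the groups for every gene both before and after thinning.

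The members were read together in deep cells. A transplanted cell had reads of 1 to 7 members (median 3), an E15 cell of 1 to 7 (median 6.5) and an E12 cell of 0 to 6 (median 3). All 7 were read in 4 transplanted, 13 E15 and 0 E12 cells, and none in 3 E12 cells. At one depth the medians were 2, 4 and 2, and among cells that were not many-gene libraries they were 2, 3 and 3. The summed level of all 7 was 369 CPM in transplanted, 493 in E15 and 545 in E12 cells, with per-cell medians of 357, 459 and 433 CPM.

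Set against E12 cells, E15 cells had 3 members higher and 4 lower, with 2 past the limit in each direction: Cdkn1a and Cdkn1b higher, Cdkn1c and Tob1 lower. Of the 10193 genes that met 5 CPM, 45.6% were past the limit, 25.3% higher and 20.3% lower, and 45.8% without many-gene libraries. At any size of the ratio 49.03% of them were higher. The median log2 ratio of the members was -0.12, against -0.03 for all genes. Cdkn1a and Cdkn1c were past the limit in each of the 11 other settings, Cdkn1b was below it in 1 (0.77, on mean CPM without many-gene libraries). Tob1 was short of it in 3 and changed sign in 2. Leaving out E12 replicate 19 left 2 members past the limit, as did leaving out pool A. In the same comparison 15 of 20 neuron genes were higher, 10 of them past the limit and 1 lower past it, and 25 of 28 S phase genes were lower, 11 of them past the limit. All 15 microglia and macrophage genes were higher past the limit (sums of 3604 CPM in E15 and 90.2 CPM in E12 cells), as were all 15 ventral telencephalon and interneuron genes (3303 and 365 CPM). Without many-gene libraries the medians of these 2 lists were 3.801 in place of 5.75 and 0.63 in place of 2.84. Their part in the values of the members was not tested.

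Against E15 cells, transplanted cells had 1 member higher, Cdkn1c, and 6 lower, of which Cdkn1a and Cdkn2c were past the limit. Among all 10163 genes 16.5% were past it, 4.71% higher and 11.8% lower. At any size of the ratio 44.4% of them were higher. The median of the members was -0.59, against -0.08 for all genes. Leaving out the many-gene libraries gave 3 higher and 4 lower, with 0 past the limit, where 46.7% of all genes were past it, and a median of -0.22, against -0.13 for all genes. Cdkn1a was at -0.97 without E15 replicate 1 and at -0.98 without E15 replicate 20, cells that held 21.7% and 21.3% of its E15 reads, and 1 member was then past the limit. Leaving out pool D left 0 past it, with Cdkn1a at -0.72 and Cdkn2c at -0.89. All 15 microglia and macrophage genes were lower too, 13 past the limit (sums of 1268 CPM in transplanted and 3604 CPM in E15 cells), though their median log2 ratio was 1.19 without many-gene libraries. All 5 erythroid genes were higher past the limit (15773 and 2636 CPM), and 21 of 28 S phase genes were higher, 4 of them past it. The part of these genes in the values of the members was not tested.

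Against E12 cells, transplanted cells had 3 members higher and 4 lower, with Cdkn1a higher (1.68) and Cdkn2c (-1.86) and Tob1 (-1.71) lower past the limit. Of 9931 genes 47.2% were higher at any size of the ratio. Past the limit were 47.6%, 22.9% higher and 24.7% lower, and 52.3% without many-gene libraries. Without those libraries 6 members were past the limit, 2 higher and 4 lower, with Cdkn1b at 1.61, Cdkn1c at -1.99 and Btg1 at -1.56, and the median was -1.10, against -0.16 for all genes. The median of the members was -0.73, against -0.09 for all genes. Btg1, at -0.95, was close to the limit and passed it when any of transplanted replicates 4, 15 and 17 or E12 replicates 17 and 20 was left out (-1.17 to -1.01). Without E12 replicate 5, the deepest E12 cell, 5 members were past the limit, with Cdkn1b at 1.22 and Cdkn1c at -1.30. Cdkn1c was at -1.24 without transplanted replicate 14. On mean CPM over cells none of the members past the limit on summed reads was past it. The log2 ratios were then 0.23 for Cdkn1a (4.21 against 3.44 CPM), 0.25 for Cdkn2c and -0.37 for Tob1. On summed reads without transplanted replicate 19 that of Cdkn1a was 1.18. In this comparison 14 of 20 neuron genes, 13 of 13 microglia and macrophage genes, 13 of 15 ventral telencephalon and interneuron genes and 4 of 5 erythroid genes were higher past the limit. Of 19 apical progenitor genes, 11 were lower past the limit, and their median of -1.28 was -0.27 without many-gene libraries. Their part in the values of the members was not tested. The 3 comparisons share groups and are not independent of each other.

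**Figure D3:**
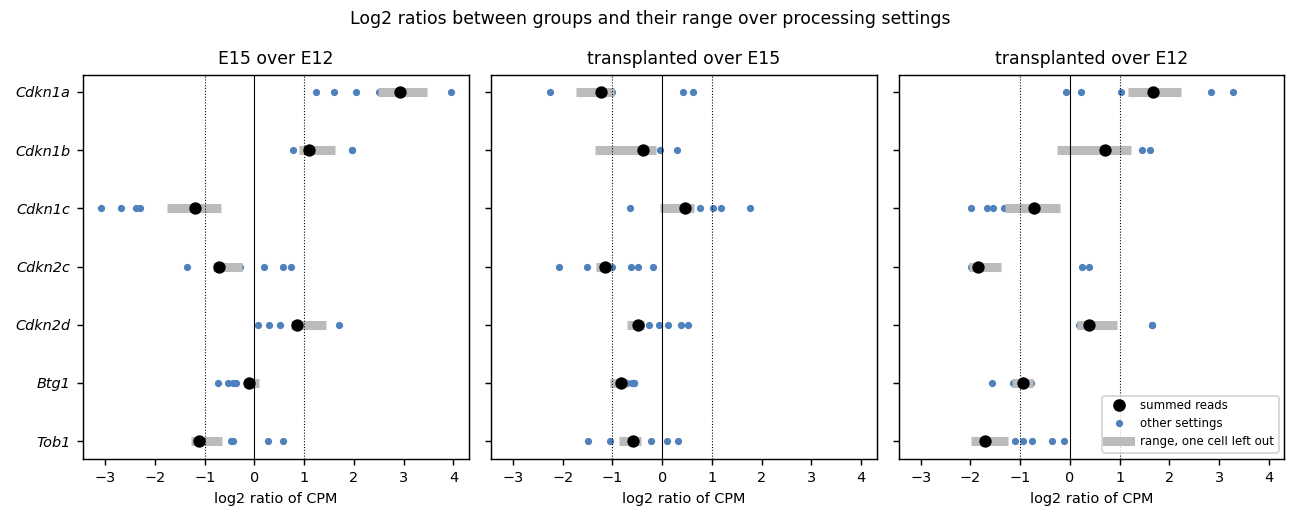
Log2 ratio of CPM for each gene in the 3 comparisons. Black points use summed reads, and blue points the other settings of scaling, pseudocount, weighting and cell choice. Grey bars give the range when 1 cell is left out, and dotted lines the limit of 1. Thinned E12 cells had 0 reads of Cdkn1a, so its rightmost points against E12 depend on the pseudocount. Btg1 in transplanted over E15 cells keeps to one side over all settings.

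Pools A to H, whose meaning the labels do not give, each held 1 to 5 cells of a group, and pool F held no transplanted cell. The titles carry another label, IL01 to IL12, whose meaning is not given either. E12 cells were IL01 to IL07 and transplanted cells IL05 to IL12. E15 cells were IL01 to IL03 and IL06 to IL12. Ratios within pools cannot tell group and this label apart. Within pools, E15 over E12 cells gave a positive ratio in 7 of 8 for Cdkn1a and for Cdkn2d and in 6 of 8 for Cdkn1b. For Tob1 4 pools were positive and 4 negative. Transplanted over E15 cells was negative in 7 of 7 pools for Btg1, in 6 of 7 for Tob1 and in 5 of 7 for Cdkn1a and Cdkn1b, and positive in 5 of 7 for Cdkn1c. Where one of the groups had no read in a pool, the size of the ratio depends on the pseudocount. Its sign then always points to the group with reads. E15 cells were deeper than E12 cells, with medians of 998630 and 148824 reads. The mean over pools of E15 over E12 cells was positive for each member, from 0.98 (Tob1) to 3.69 (Cdkn1a). That held also for Cdkn1c and Tob1, whose summed ratios were negative. The counts of pools by sign are thus not separate from depth. The share of all genes positive within pools is not given here.

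**Figure D4:**
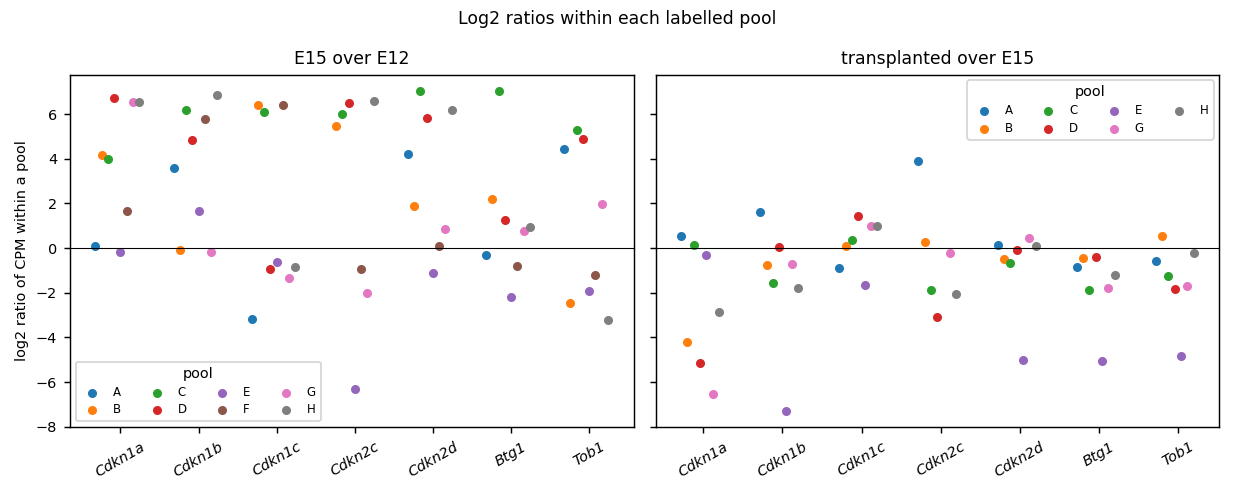
Log2 ratio of CPM within each labelled pool, for E15 over E12 cells (8 pools) and transplanted over E15 cells (7 pools). Each point is 1 pool, and a pool with no read of the gene in either group has no point. All 7 points of Btg1 in transplanted over E15 cells are below 0.

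The values as deposited, log10 residuals from which the authors had removed the gene mean and 2 further directions over cells, are a second view of the same cells. Cdkn1a averaged -0.14 in transplanted, 0.10 in E15 and 0.00 in E12 cells, with SDs over cells of 0.18, 0.27 and 0.21. Cdkn1c averaged -0.06 in transplanted, -0.15 in E15 and 0.24 in E12 cells, with SDs of 0.62, 0.32 and 0.79, the widest spread of the 7 genes being its E12 value. Btg1 averaged -0.21 in transplanted, 0.08 in E15 and 0.10 in E12 cells (SDs 0.46, 0.37 and 0.61). For the other members each group mean lay between -0.08 and 0.09. Every difference between groups was smaller than the larger SD over cells.

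The partners of the inhibitors were looked at on lists. The counts past the limit on each list stand against the shares over all genes given above: 25.3% higher and 20.3% lower in E15 over E12, 4.71% and 11.8% in transplanted over E15, and 22.9% and 24.7% in transplanted over E12 cells. At any size of the ratio 49.03%, 44.4% and 47.2% of all genes were higher in the same order. Of the 10 cyclins and kinases that the inhibitors bind, 2 were higher and 8 lower in E15 than in E12 cells, 0 and 6 of them past the limit, with a median of -1.29 (-0.72 without many-gene libraries). Ccne2, cyclin E2, was at 8.27 against 43.5 CPM, its kinase Cdk2 at 44.6 against 159 CPM, and the D cyclin Ccnd3 at 34.5 against 108 CPM, though on mean CPM the Ccnd3 log2 ratio was 1.30. The E12 reads of Ccne2 came from 4 of 20 cells. Leaving out many-gene libraries gave log2 ratios of -0.99 for Cdk2 and -0.059 for Ccnd3, in place of -1.81 and -1.62. Of 12 Rb pocket protein and E2F genes that met 5 CPM, 3 were higher and 9 lower, with 1 and 3 past the limit. Rb1, the retinoblastoma protein that CDKs inactivate, was at 71.0 CPM in E15 and 6.07 CPM in E12 cells (log2 ratio 3.35, and 1.77 on mean CPM), while the repressor E2Fs E2f7 (17.02 against 96.7 CPM) and E2f8 (5.90 against 33.99 CPM) were lower. Those 2 lists had medians of -1.29 and -0.76, against -0.03 for all genes.

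In transplanted over E15 cells the same cyclin and kinase list had 4 genes higher and 6 lower, 1 past the limit each way, with Ccnd1 at 44.2 against 16.4 CPM and Ccnd3 at 15.96 against 34.5 CPM. Ccnd2, a D cyclin of cortical progenitors, had 1776 CPM in transplanted and 2977 CPM in E15 cells, and its log2 ratio of -0.75 became 0.92 without many-gene libraries. Ccnd1 was then at 0.96 in place of 1.38. In the Rb and E2F list 8 were higher and 5 lower, with E2f6 past the limit (55.9 against 23.3 CPM). E2f1 was at 106 against 55.7 CPM and Rb1 at 42.9 against 71.0 CPM. Against E12 cells, 2 of the 10 cyclins and kinases were higher and 8 lower in transplanted cells, 0 and 5 past the limit, among them Ccne2 (4.80 against 43.5 CPM), Ccnd3 (15.96 against 108 CPM) and Ccne1, cyclin E1 (9.75 against 40.3 CPM). Of the 13 Rb and E2F genes 6 were higher and 7 lower, 3 and 4 past the limit, with Rb1 at 42.9 against 6.07 CPM, E2f7 at 13.4 against 96.7 CPM and E2f8 at 12.7 against 33.99 CPM. Without many-gene libraries E2f8 had a log2 ratio of -0.35 in place of -1.36 in transplanted over E12, and E2f1 and Rb1 had 1.77 and -1.71 in place of 0.91 and -0.72 in transplanted over E15 cells. The medians then also turned in sign for the cyclin and kinase list in transplanted over E15 cells (0.18 in place of -0.16) and for the Rb and E2F list in transplanted over E12 cells (0.31 in place of -0.62).

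Of 8 genes of the machinery that degrades p27, 5 were higher and 3 lower in E15 than in E12 cells, and only Skp2, the F-box protein that recognises p27, was past the limit, at 34.1 against 71.0 CPM (log2 ratio -1.04, and -0.01 without many-gene libraries). The F-box gene Fbxw7 was at 77.6 against 147 CPM and the ring protein gene Rbx1 at 968 against 522 CPM. In transplanted over E15 cells 0 of 8 were past the limit, with Skp2 at 41.3 against 34.1 CPM, its cofactor Cks1b at 406 against 329 CPM and the scaffold Cul1 at 160 against 192 CPM. Transplanted over E12 cells gave 5 higher and 3 lower, with Fbxw7 past the limit (72.3 against 147 CPM, log2 ratio -1.02, and -0.60 without many-gene libraries), Rbx1 at 1007 against 522 CPM and Cops5 at 220 against 117 CPM.

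Among 14 genes of p53 and its targets, Cdkn1a left aside, 10 were higher and 4 lower in E15 than in E12 cells, 3 and 1 past the limit, where 45.6% of all genes were past it, with a median of 0.49. Trp53inp1, a p53-induced nuclear protein, was at 28.2 against 0.809 CPM and the polo-like kinase gene Plk2 at 40.5 against 20.03 CPM (log2 ratio 0.98, 1.36 without many-gene libraries and -0.18 on mean CPM), while the sestrin gene Sesn2 was at 5.60 against 57.9 CPM. The E12 reads of Sesn2 came from 3 of 20 cells. In transplanted over E15 cells 6 were higher and 8 lower, 1 past the limit each way, with Ccng1, cyclin G1, at 10.5 against 23.1 CPM, Sesn1 at 34.6 against 43.9 CPM and the pro-apoptotic Bax at 95.2 against 75.3 CPM. Over E12 cells 8 were higher and 6 lower, 4 and 1 past the limit, with Trp53inp1 at 23.4 against 0.809 CPM, Plk2 at 39.5 against 20.03 CPM and Sesn2 at 17.5 against 57.9 CPM. Without many-gene libraries the Trp53inp1 log2 ratio was 0.20, that of Sesn2 -0.94 and that of Plk2 -0.92 in that comparison, and the median of the list was -0.05 in place of 0.63.

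Factors known to act on the members gave 4 higher and 10 lower of 14 in E15 over E12 cells, with 3 and 4 past the limit. Smad7 (5.15 against 61.1 CPM) and Smad3 (3.74 against 32.6 CPM), both of the TGF-beta pathway, were lower. The Smad7 log2 ratio was -3.34, and -0.93 on mean CPM. Hes1, a Notch effector known to repress Cdkn1b and Cdkn1c, was lower too (97.2 against 547 CPM, log2 ratio -2.48, -0.74 without many-gene libraries and -0.90 on mean CPM). In transplanted over E15 cells 6 were higher and 8 lower, and only the Polycomb gene Bmi1 was past the limit, at 44.7 against 130 CPM. Its log2 ratio was -1.52, and -0.37 on mean CPM. Zbtb17 was at 75.6 against 49.8 CPM and Ezh2 at 334 against 239.8 CPM (log2 ratio 0.48, and 1.27 without many-gene libraries), and the median of -0.22 was 0.46 without many-gene libraries. Over E12 cells transplanted cells had 5 higher and 9 lower, 3 and 6 past the limit, with Smad7 at 2.67, Hes1 at 98.3 and Foxo6 at 27.9 CPM, against 61.1, 547 and 115 CPM.

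Of the relatives of the members, Cdkn2a, Cdkn2b, Btg3 and Btg4 were not analysed here. Cdkn3, a phosphatase of CDKs and no inhibitor of either family, was at 39.5 CPM in transplanted, 50.3 in E15 and 13.96 in E12 cells. Btg2, a marker of progenitors about to make neurons, was at 16.99, 62.1 and 45.3 CPM in the same groups, with a log2 ratio of transplanted over E15 cells of -1.81 (-3.28 without many-gene libraries). Tob2 was at 10.9, 13.3 and 18.2 CPM. In E15 over E12 cells the log2 ratios of Btg2 and Tob2 were 0.45 and -0.42, and 1.65 and 0.45 without many-gene libraries. All 4 measured genes of the BTG/TOB family, Btg1, Btg2, Tob1 and Tob2, were thus lower in transplanted than in E15 cells, 1 of them past the limit, with a median of -0.71 (-0.66 without many-gene libraries). Of all genes 44.4% were higher in this comparison. On mean CPM the Tob1 log2 ratio was 0.10, and 0.31 on mean CPM without many-gene libraries. Of the 12 measured CCR4-NOT genes, the partners of this family, 3 were higher and 9 lower in transplanted than in E15 cells, 0 and 1 past the limit: Cnot6l was at 12.1 against 26.1 CPM, Cnot6 at 76.9 against 129 CPM and Cnot4 at 86.4 against 53.5 CPM. In E15 over E12 cells 3 were higher and 9 lower, 2 past the limit each way, with Cnot3 at 77.0 against 274 CPM, Cnot1 at 54.9 against 130 CPM and Cnot9 at 96.8 against 43.1 CPM (log2 ratio 1.15, and 0.10 without many-gene libraries). Without those libraries Cnot6 in transplanted over E15 cells was at -1.49 in place of -0.74. In transplanted over E12 cells 2 were higher and 10 lower, 1 and 5 past the limit, with Cnot4 at 86.4 against 24.9 CPM, Cnot3 at 87.7 against 274 CPM and Cnot1 at 47.9 against 129.9 CPM (log2 ratio -1.42, and -0.92 without many-gene libraries). On mean CPM the Cnot4 log2 ratio in this comparison was 0.063 in place of 1.76, and that of Cnot1 was -0.79. Cnot6l in transplanted over E15 cells was then at -0.21 in place of -1.05. Cnot1 in E15 over E12 cells was at -0.20 in place of -1.23.

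Within each group, Cdkn1c was higher in cells with more reads of neuron genes. Its rank correlation over cells with the neuron list was 0.64 in transplanted (19 cells), 0.54 in E15 (26 cells) and 0.48 in E12 cells (20 cells). With the S phase list it was -0.33, -0.38 and -0.62, and with the apical progenitor list -0.31, -0.57 and -0.39 in the same groups. Of the 42 pairs of a member and a list, 4 had one sign and at least 0.3 in size in all 3 groups, and 3 of these were the pairs of Cdkn1c just given. The other one was Cdkn1a with the apical progenitor list (-0.38 in transplanted, -0.68 in E15 and -0.32 in E12 cells), which was -0.14 in transplanted cells without many-gene libraries. With the number of genes detected held fixed, the values of Cdkn1c with the neuron list were 0.68, 0.33 and 0.46, and without many-gene libraries 0.53, 0.32 and 0.48. Without those libraries the S phase relation was -0.031 in transplanted and -0.23 in E15 cells. The apical progenitor relation of Cdkn1c turned to 0.087 in transplanted cells and was -0.45 in E15 cells, so it had one sign in all 3 groups only with those libraries in. These are descriptions of cells that share a library preparation and differ in depth, and 126 such relations were computed, with a median size of 0.20.

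**Figure D5:**
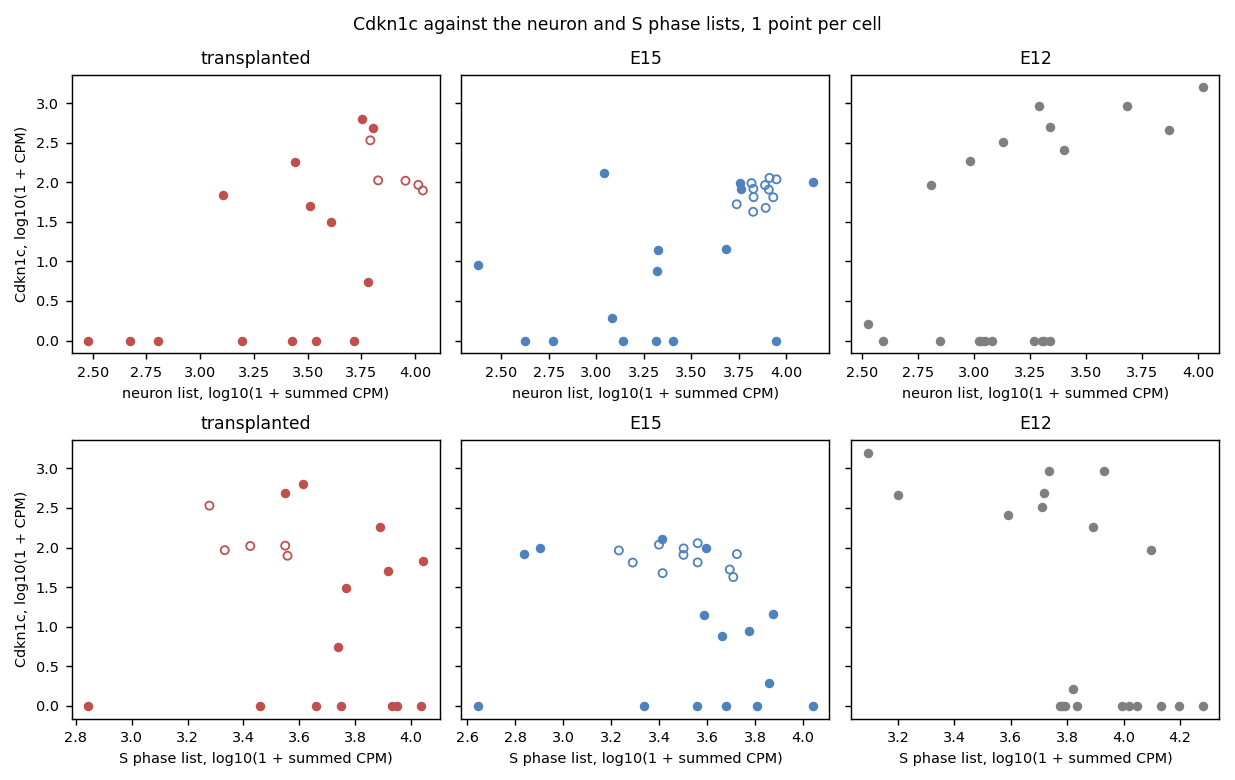
Cdkn1c level against the summed level of the neuron list (top) and of the S phase list (bottom), both as log10(1 + CPM), in transplanted, E15 and E12 cells. Each point is a cell, hollow where more than 8000 genes were detected. The 6 E12 cells with the lowest S phase sums all had more than 100 CPM of Cdkn1c, and many-gene libraries sit at high neuron sums.

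For the other members, values past 0.5 in size came from 1 group at a time, and the difference between groups was not tested. Btg1 and the G2 and M phase list went together over E15 cells (rank correlation 0.62 over 26 cells, 0.64 without many-gene libraries and 0.47 with genes detected held fixed), against 0.07 in transplanted and -0.08 in E12 cells. Cdkn1a and the neuron list gave 0.57 in E15 cells (0.39 without many-gene libraries), 0.28 in transplanted and 0.05 in E12 cells, and Cdkn2d and the neuron list 0.52 in E15 cells (0.05 without those libraries). The number of genes detected in a cell itself correlated with each member in E15 cells, at 0.36 to 0.63. In transplanted cells these values ran from 0.13 (Cdkn1c) to 0.67 (Cdkn2c), and in E12 cells from -0.21 (Cdkn1c) to 0.66 (Cdkn2c). Cdkn1a and the p53 list gave -0.22 in transplanted, 0.49 in E15 and -0.41 in E12 cells, with no common sign.

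Between members, Cdkn2c and Cdkn2d, the Ink4 pair whose promoter windows are given above, had the highest rank correlation: 26 of 65 cells had reads of both, 2 of Cdkn2c alone, 11 of Cdkn2d alone and 26 of neither. It was 0.55 over 65 cells, 0.46 over the 49 cells that were not many-gene libraries, and the correlation of deposited values was 0.26 (0.52 in transplanted, -0.07 in E15 and 0.43 in E12 cells). Cdkn1c and Cdkn2c stood furthest apart, with -0.29 on deposited values, and -0.35 in transplanted, -0.40 in E15 and -0.22 in E12 cells. All other pairs lay between -0.17 and 0.24.

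The genes most like each member over the 65 cells, by Pearson correlation of deposited values among 8434 genes read in at least 20 cells, were Plin3 (0.58), Nfkbiz (0.56) and Epha7 (0.55) for Cdkn1a, and Enox1 (0.58), Pigq (0.55) and Eef2k (0.55) for Cdkn1b. For Cdkn1c they were Tmem258 (0.58), Cnksr2 (0.48) and Cdk4 (0.46), the last with a rank correlation of CPM of 0.21. Wnk2 (0.59), Taf5l (0.55) and Adck2 (0.55) were most like Cdkn2c, and Ankib1 (0.62), Pkn2 (0.60) and Prpf38b (0.57) most like Cdkn2d. Snord13 (0.54), Srsf9 (0.50) and Rere (0.48) led for Btg1, and Nectin3 (0.55), Slc39a1 (0.53) and Ttc33 (0.52) for Tob1. No member was among the 3 genes most like another. Of the 100 genes most like a member, 53 remained among the 100 without many-gene libraries for Cdkn1a and 80 to 90 for the other 6.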

How the data were processed

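Single-cell RNA was measured in 65 cells, 1 library each. Per the labels' protocols, libraries were made with the SMART-Seq v4 3' DE and Nextera XT kits; the submitters' processing notes name STAR, HTSeq and mm10. The deposited values are log10 values that the authors had centred per gene over the 65 cells, with 2 further directions over cells removed, as found from the values (rank 62); what those directions are is not given in the sources used here. Whole read counts were recovered from them for all 10407 genes: 9935 from the plane formed by cells without reads and 472 by a search, with all 356667 non-zero values within 0.01 of a whole number. The recovery and the ratios were checked on simulated data with known answers. The simulated ratios had counting error alone, with no variation between cells. They therefore cannot speak to how far a ratio here depends on single cells.

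Counts were summed per group and scaled to CPM. With 1 sample a group no count model was fitted. Ratios used a pseudocount of 1 CPM, and genes below 5 CPM in both groups were left out. Thinning drew 28614 reads per cell, the depth at the 10th percentile. The members, the gene lists and the limit of 8000 genes were chosen with earlier results of these data known. Pathway genes named were, per list and comparison, at most 3 with the largest log2 ratio in size among genes of at least 20 CPM in either group, plus the measured relatives of the members. Genes named as alike were the 3 of highest correlation, passing over predicted genes with Gm and Rik names. Alternatives were other scalings (TMM, median of ratios, totals without ribosomal protein and mitochondrial genes), pseudocounts (0.1 and 5 CPM), low-value filters, mean CPM over cells, thinning, pools, the deposited values, and leaving out cells. Software was Python 3.11.15, Matplotlib 3.10.9 for figures, Numba 0.67.0 for the search, and pandas 2.3.3, SciPy 1.17.1 and NumPy 2.4.6 for the rest.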

Additional observations from a re-analysis of the deposited data

How the results depend on the processing

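Of 336 values of single members under alternatives, 305 had the sign of the reported ratio and 265 lay on the same side of the limit. These values include the other pseudocounts, which cannot turn a sign. Ratios past the limit that changed sign did so for Cdkn1c in E15 over E12 cells within pools (1.501), and for Tob1 in that comparison with thinning (0.27), thinning without many-gene libraries (0.56), within pools (0.98) and on deposited log10 values (0.079). In transplanted over E15 cells Cdkn1a turned without many-gene libraries (0.42), also when thinned (0.61). In transplanted over E12 cells Cdkn1a turned on mean CPM without many-gene libraries (-0.081) and on deposited values (-0.14), Cdkn2c on mean CPM (0.25), on mean CPM without many-gene libraries (0.38) and within pools (1.88), and Tob1 on deposited values (0.0026). The cause was not tested.

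The median over the members in E15 over E12 cells, -0.12, was 0.74 on mean CPM, 0.27 thinned, -0.73 without many-gene libraries, 0.57 on mean CPM and 0.064 thinned without them, 1.92 within pools and 0.10 on deposited values. Leaving out 1 cell gave -0.21 to 0.094 and 1 pool -0.29 to 0.38, and the count of 4 past the limit became 2 to 4 with 1 cell and as low as 2 with 1 pool left out. In transplanted over E15 cells the median of -0.59 was -0.84 thinned, -0.22 without many-gene libraries, -0.041 on mean CPM without them and -1.41 within pools. It ranged from -0.87 to -0.42 with 1 cell left out and reached -0.98 with 1 pool left out. The count of 2 was 0 without many-gene libraries, 1 to 3 with 1 cell left out, as low as 0 with 1 pool left out and 4 within pools. In transplanted over E12 cells the median of -0.73 was -0.059 on mean CPM, -0.60 with TMM factors, -1.10 without many-gene libraries, 0.13 on mean CPM and -0.94 thinned without them, and 1.36 within pools. Leaving out 1 cell gave -0.94 to -0.20 and 1 pool -1.12 to -0.50. The count of 3 was 6 without many-gene libraries, 5 thinned without them, and up to 5 with 1 cell or 1 pool left out. The deposited values give no count past the limit. No paired analysis was possible because replicate numbers follow accession order and pair no cells, and each group is 1 sample with no test. The labelled pools, which the groups share, gave the ratios within pools above as values only. Depth limits the low values: the E12 level of Cdkn1a rests on 13 reads.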
